A study of Mus musculus with 36 samples.

Results

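The nuclear-encoded genes of mitochondrial complex I were described across 36 mouse heart RNA sequencing libraries in 16 groups. Members were all genes of the deposited expression table whose symbol begins with Nduf, without pseudogenes, and 41 of 32750 symbols qualified. Ndufb8 had a pair of gene models, of which the one with the higher mean was kept. All animals were of the CD-1 background. Whole ventricular myocardium came from unoperated mice at P0 (postnatal day 0), P4 and P7 and from adults, with 2 libraries per group. It also came from mice that had undergone ventricular resection or a sham operation 1 or 7 days earlier, again with 2 libraries per group. Cardiomyocytes isolated on Miltenyi columns were taken at P0 and P4 and 7 days after sham surgery or resection, with 3 libraries per group. Dissociated adult cardiomyocytes were sampled at 0, 24, 48 and 72 h of explant culture, with 2 libraries per group. The age at surgery, the number of animals behind a library and whether replicates came from separate animals were not given in the sources used here, so p-values measure the spread between these libraries, which may be technical.

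Complex I (NADH:ubiquinone oxidoreductase) is the entry point of electrons from NADH into the respiratory chain. Its peripheral arm holds flavin and iron-sulfur clusters that pass electrons to ubiquinone, and its membrane arm pumps protons. The core subunits carry the catalysis: those of the peripheral arm are encoded in the nucleus and those of the membrane arm by the mt-Nd genes of mitochondrial DNA. Accessory subunits, all nuclear, surround the core and stabilise it, and assembly factors help to build the complex without remaining in it. The heart relies on oxidative phosphorylation, and its mitochondria multiply and mature after birth as fuel use shifts from glucose towards fatty acids.

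The 41 genes comprised 6 nuclear core subunits (among them Ndufv1, Ndufv2, Ndufs3, Ndufs7 and Ndufs8), 29 accessory subunits, 4 assembly factors (Ndufaf1 to Ndufaf4) and the pair Ndufa4 and Ndufa4l2. Ndufa4 was long counted as a complex I subunit and is now placed in cytochrome c oxidase, and Ndufa4l2 is its hypoxia-inducible relative. Ndufs1 and the further Nduf assembly factors were not analysed here. Levels are given in FPKM, fragments scaled per kilobase of transcript and to a fixed library size, which scales each gene by its length and each library by its size. Depth per library is unknown.

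Promoters of 37 of the 41 genes were found in RefSeq (GRCm38.p6), as the 250 bases before and 50 bases after the transcription start. They are shown as background, because the nuclear respiratory factor NRF1 is known to bind promoters of respiratory chain genes. Whether any motif had a part in the differences below was not tested. The promoters of all symbols given beside them were not matched for expression or base composition. The NRF1 motif, searched on both strands as GCGCA, any base and then GCGC, was present in the promoters of 8 of the 37 genes (21.62%), beside 5.19% of the promoters of all 27025 symbols. The 8 genes were Ndufa5, Ndufa6, Ndufa8, Ndufa11, Ndufaf4, Ndufb4, Ndufs5 and Ndufs6. The 120 bases just before the start are given for 4 of them, 5′ to 3′ on the gene's strand, with the motif in capitals. They lie at chr4:123718187-123718306 (minus strand, Ndufs5), chr13:73328483-73328602 (minus, Ndufs6), chr17:56717642-56717761 (plus, Ndufa11) and chr6:24527691-24527810 (minus, Ndufa5) of GRCm38.p6.

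Ndufs5: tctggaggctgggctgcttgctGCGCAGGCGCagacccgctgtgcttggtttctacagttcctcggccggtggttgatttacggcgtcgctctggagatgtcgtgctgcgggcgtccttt
Ndufs6: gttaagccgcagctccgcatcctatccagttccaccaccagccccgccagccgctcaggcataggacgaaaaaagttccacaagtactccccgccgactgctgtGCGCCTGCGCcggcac
Ndufa11: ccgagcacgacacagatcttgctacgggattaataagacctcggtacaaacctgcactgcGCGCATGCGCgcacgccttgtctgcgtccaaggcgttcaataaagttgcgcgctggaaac
Ndufa5: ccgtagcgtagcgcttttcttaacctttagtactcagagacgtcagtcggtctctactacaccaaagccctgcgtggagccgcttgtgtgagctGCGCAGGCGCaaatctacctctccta

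The YY1 motif AAGATGGCG, searched on both strands, was found in 5 promoters (13.51%), those of Ndufa9, Ndufc1, Ndufs4, Ndufs6 and Ndufs7, beside 1.64% of all promoters. In all 5 it lay after the transcription start, and the ATG inside it was the annotated start codon. The windows around it were chr10:80249465-80249489 (plus strand, Ndufs7), chr13:73328433-73328457 (minus, Ndufs6), chr13:114388045-114388067 (minus, Ndufs4), chr6:126849099-126849123 (minus, Ndufa9) and chr3:51408917-51408941 (minus, Ndufc1), with the motif in capitals.

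Ndufs7: ccgaggccAAGATGGCGgcgctggc
Ndufs6: tcaccggcAAGATGGCGgcggtgct
Ndufs4: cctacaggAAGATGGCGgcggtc
Ndufa9: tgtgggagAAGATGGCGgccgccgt
Ndufc1: tgcggaacAAGATGGCGccgtccgt

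The ETS-type motif CCGGAAGT was found in 1 promoter, that of Ndufs3 (2.7%, beside 4.31% of all), and the ERR motif TCAAGGTCA in 0 of 37 (beside 0.47% of all). A match shows only that these letters are present in the window. Ndufs6 held both an NRF1 and a YY1 match, and no match of one motif overlapped that of another.

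Between 10411 and 13075 genes reached 1 FPKM in a library. Summed levels of 6 cardiomyocyte markers stayed between 18109 and 19970.1 FPKM in ventricle at P0 and adult. In isolated cells they were 12474 to 14611 FPKM at P0 and 5591 to 7210.3 FPKM 7 days after sham surgery. The 7 erythroid markers summed to 989 to 21042 FPKM in isolated cells at P0, which the labels call cardiomyocytes. In bulk libraries, fewer cells of a type and less RNA per cell cannot be told apart. In isolated cells 7 days after resection 4 of 4 atrial cardiomyocyte markers were called higher than after sham surgery. The 5 lung epithelium markers summed to 178 to 1159.9 FPKM after resection and 0.435 to 2.7 FPKM after sham surgery. They reached the minimum level for testing only with the resection libraries, so calls on them are not counted. In ventricle 1 day after resection replicate 1 stood apart from replicate 2. The 8 ventricle libraries of operated animals stood apart from the 8 of unoperated animals in these genes, as described at the end, so their levels were compared only among themselves.

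As a group the Nduf genes were abundant. 26 of the 41 averaged over 100 FPKM across the libraries and 10 averaged under 50 FPKM. Their sum in ventricle was 5847 ± 703 (SD, n = 2) FPKM at P0 and 9337 ± 199.7 (SD, n = 2) FPKM in adults, and their share of all FPKM was 1.37% and 1.95%. Freshly dissociated adult cardiomyocytes had a sum of 12326 ± 959 (SD, n = 2) FPKM. Isolated cells 7 days after sham surgery had 3040.2 ± 432 (SD, n = 3) FPKM, the lowest group mean of the 16.

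**Figure D1:**
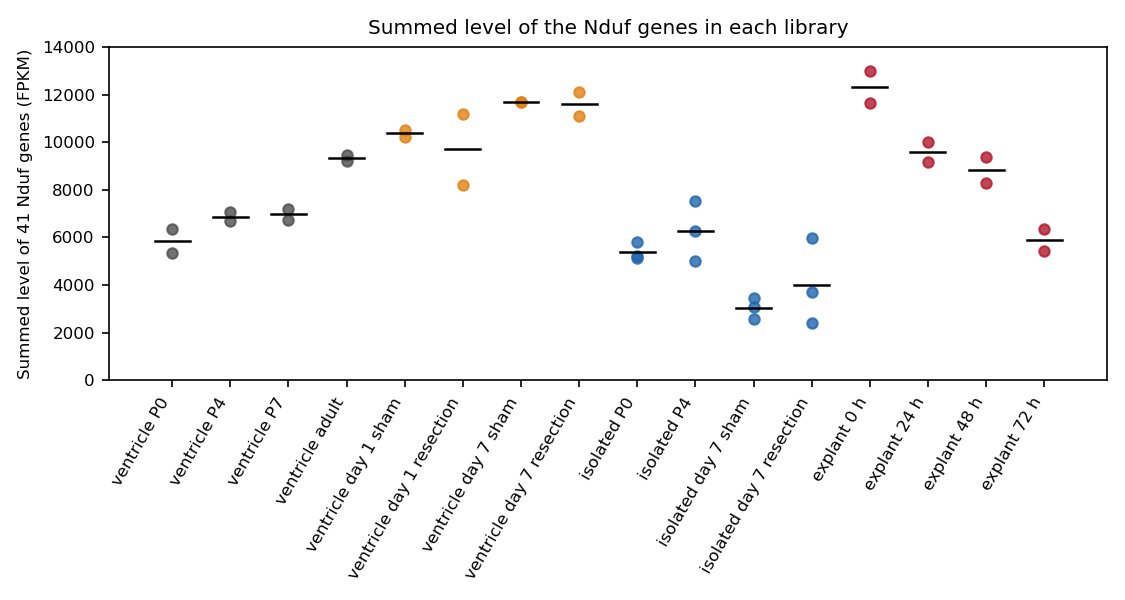
Summed FPKM of the 41 Nduf genes in each library (points) with the group mean (line), grey for unoperated ventricle, orange for operated ventricle, blue for isolated cells and red for explants. The sum was 5351 and 6344 FPKM in ventricle at P0 and 9196 and 9478 FPKM in adults, and in explants it was 11648 and 13004 FPKM at 0 h and 5433 and 6369 FPKM at 72 h.

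The most abundant members by mean over all libraries were Ndufa4 (610.3 FPKM), Ndufb9 (516 FPKM), a membrane-arm accessory subunit of the LYR family, and Ndufb8 (452 FPKM), another membrane-arm subunit. Among core subunits Ndufv2 of the NADH-oxidising module averaged 368 FPKM. Ndufs3, also a core subunit, averaged 17.3 FPKM. The 4 assembly factors averaged between 10.3 FPKM (Ndufaf3) and 26 FPKM (Ndufaf4). The lowest member was Ndufa4l2 at 5.74 FPKM. For 12 members, among them Ndufs3, Ndufs5, Ndufs6, Ndufb3, Ndufb4, Ndufb9 and Ndufa12, a stretch of at least 200 bases matches another annotated gene at 95% identity or more. How the authors' quantification divided such reads is not stated, so the levels of these 12 are uncertain.

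In postnatal ventricle, which asks how the heart muscle matures after birth, 24 of 41 Nduf genes were higher in adults than at P0 and 0 were lower. Of all 14201 genes tested 13.4% were called higher and 43.8% lower. The members had a median log2 difference of 0.61, beside -0.36 over all genes tested. Calls throughout are limma tests on log2(FPKM + 1) with a Benjamini-Hochberg adjusted p below 0.05, and log2 differences are on that scale, which understates changes of low genes. Of accessory subunits 16 of 29 were called higher, and of assembly factors 3 of 4. Adult libraries lay wholly above P0 libraries for 36 members and wholly below for 2 members, and the groups overlapped for 3 members. Of all genes tested 20.7% lay wholly above and 59.6% wholly below.

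Among core subunits the largest rise was that of Ndufs7 (chr10:79711865-79719539 on mm9), which carries the last iron-sulfur cluster before ubiquinone. Ndufs7 was 239 and 213 FPKM at P0, 283 and 247 FPKM at P4, 267 and 258 FPKM at P7 and 396 and 462 FPKM in adults. Both adult libraries lay above the 6 neonatal ones (log2 difference 0.92 ± 0.13 (SE), adjusted p = 9.14e-05). Ndufs8 was 118 and 96.5 FPKM at P0, 132 and 116 FPKM at P7 and 176 and 203 FPKM in adults. Ndufs8, the neighbouring iron-sulfur subunit, was thus higher in adults without overlap (log2 difference 0.82 ± 0.19 (SE), adjusted p = 0.00227). Ndufv2 rose as well, with a log2 difference of 0.64 ± 0.12 (SE, adjusted p = 0.000458). Ndufv1, the subunit that binds NADH and flavin, was not called in the fit over all ventricle libraries. Ndufv1 was 334 and 292 FPKM at P0 and 420.2 and 414 FPKM in adults. The adult libraries were both above P0 (log2 difference 0.42 ± 0.22 (SE), adjusted p = 0.115). In a limma fit of unoperated ventricle alone, added after seeing the data, Ndufv1 was called (0.42 ± 0.13 (SE), adjusted p = 0.0189). Ndufs3 had nearly the same level at both ages and its groups overlapped (log2 difference 0.05 ± 0.16 (SE), adjusted p = 0.812).

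Among accessory subunits the largest fitted difference was that of Ndufs5 (chr4:123389952-123395445 on mm9), a small protein of the intermembrane space. It is one of the low members. Like Ndufs6, Ndufb3 and Ndufb4 below, it has a near copy in another gene, so its level is uncertain. Ndufs5 was 10.9 and 7.66 FPKM at P0, 6.92 and 13.1 FPKM at P4, 11.5 and 7.68 FPKM at P7 and 24.6 and 25.6 FPKM in adults. The neonatal libraries overlapped one another and the adult libraries were both above all 6 of them (log2 difference 1.36 ± 0.34 (SE), adjusted p = 0.00424). Ndufs6, a zinc-binding subunit at the junction of the NADH module, and Ndufb10 (chr17:24859004-24861423), another intermembrane-space subunit, followed. Ndufs6 was 95.8 and 69.1 FPKM at P0 and 158 and 165 FPKM in adults. Ndufb10 was 231 and 194 FPKM at P0, 316 and 273 FPKM at P4, 295 and 319 FPKM at P7 and 407 and 433 FPKM in adults. Neither gene's adult libraries overlapped those at P0, with a log2 difference of 0.98 ± 0.21 (SE, adjusted p = 0.00175) for Ndufs6 and a log2 difference of 0.98 ± 0.16 (SE, adjusted p = 0.000173) for Ndufb10. Ndufa5, a subunit of the peripheral arm, rose by 0.92 on the log2 scale. Ndufb3 and Ndufb8 of the membrane arm rose by 0.88 and 0.84. Among the 13 accessory subunits that were not called, the log2 difference of Ndufab1, the mitochondrial acyl carrier protein, was 0.03 and that of Ndufb4 was -0.55 (adjusted p = 0.0686). Ndufb4 and Ndufa4l2 were the 2 members whose adult libraries lay wholly below P0.

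Ndufa4 (chr6:11850372-11857446 on mm9) rose with the group. Ndufa4 was 296 and 245 FPKM at P0, 339 and 346 FPKM at P4, 377 and 408 FPKM at P7 and 558 and 564 FPKM in adults. The adult libraries stood above all neonatal ones (log2 difference 1.06 ± 0.19 (SE), adjusted p = 0.000549). Its relative Ndufa4l2 (chr10:126951994-126954208) followed another course. Ndufa4l2 was 12 and 10.2 FPKM at P0, 14.2 and 13.9 FPKM at P4, 18.5 and 18.7 FPKM at P7 and 9.76 and 9.26 FPKM in adults. Both P7 libraries were above those of every other age, and it was called higher at P7 than at P0 (0.70, adjusted p = 0.0329) and lower in adults than at P7 (-0.90, adjusted p = 0.00277). Adult against P0 it was not called, and its small difference there turned from -0.20 to 0.17 with median-of-ratios scaling.

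Assembly factors Ndufaf1, Ndufaf2 and Ndufaf4 were higher in adults and Ndufaf3 was not called. Ndufaf1 was 21.1 and 18.2 FPKM at P0 and 27.5 and 32.8 FPKM in adults. Ndufaf2 was 18.1 and 15 FPKM at P0 and 25.4 and 27.9 FPKM in adults. The adult libraries lay above those at P0 in both genes, by 0.59 and 0.66 on the log2 scale. Ndufaf4 differed by 0.42 (adjusted p = 0.0471) and Ndufaf3 by 0.27 (adjusted p = 0.397).

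Fewer members were called between the neonatal ages. At P4 against P0 0 members were called by limma, 3 had an unadjusted p under 0.05, and 1.35% of all genes were called in either direction. Ndufb10 and Ndufa5 had the smallest p-values, with differences of 0.47 and 0.44. P4 libraries lay wholly above P0 for 29 of 41 members, beside 18.4% of all genes tested, and the members' median difference of 0.24 became 0.12 without P0 replicate 2. At P7 against P0 3 members were called higher, Ndufa4l2, Ndufb10 (0.53) and Ndufa5 (0.53), beside 4.38% of all genes called higher and 8.28% lower, and each call was lost when any one of the 4 libraries was left out. Adult against P7 13 members were called higher, beside 10.8% of all genes, and Ndufa4l2 lower, beside 30.0% of all genes. The largest were Ndufs5 (1.33), Ndufs6 (0.71), Ndufs7 (0.70) and Ndufa6 (0.68), the last a LYR-family subunit. Ndufs8, Ndufv2 and Ndufb9 rose by 0.61, 0.54 and 0.53. Without adult replicate 2 the counts of adult against P7 were 5 higher and 1 lower, without P7 replicate 1 they were 7 and 1, and without P7 replicate 2 they were 8 and 1. With median-of-ratios scaling 28 members were higher and 1 lower, beside 19.4% and 19.5% of all genes. In unoperated ventricle alone 23 were higher and 2 lower, beside 13.5% and 36.2% of all genes. With quantile normalization 8 were higher and 1 lower, beside 18.1% and 18.7% of all genes. With all 36 libraries in the fit 1 was higher and 0 were lower, beside 5.84% and 16.4%.

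Other genes of the respiratory chain were read from lists. Of the 7 mt-Nd genes 6 were higher in adults than at P0, with mt-Nd6 at 1.16 and mt-Nd2 at 1.09, and 5 were already called higher at P7. Of complex I assembly genes with other names 3 of 9 rose, among them Tmem70 (0.77) and Ecsit (0.75), and 1 fell, Lyrm2 (-0.69). Called higher were 2 of 4 genes of complex II, 5 of 9 of complex III, 4 of 13 of complex IV and 2 of 15 of complex V. In complex IV 2 genes fell, Cox8a (-1.52) and Cox6a1 (-1.29), while Cox7a1 (2.37) and Cox8b (1.69) rose, isoforms typical of heart and skeletal muscle.

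Rescaling the libraries by median-of-ratios moved the median of all genes from -0.36 to -0.05 in adult against P0. The count of members called higher went from 24 to 35, beside 23.8% of all genes called higher and 25.4% lower. A fit with all 36 libraries gave 11, beside 9.13% of all genes called higher and 32.5% lower. In unoperated ventricle alone 32 were higher and 1, Ndufb4, was lower (-0.55, adjusted p = 0.00269). Of all genes tested in that fit 15.9% were called higher and 49.97% lower. Summed markers of macrophages were 34.2 to 45.1 FPKM at P0 and 163 to 215 FPKM in adults, those of fibroblasts 706 to 987 and 389.6 to 403 FPKM, and erythroid markers 1237 to 1381 and 3664 to 4241 FPKM, with none of the 8, 7 and 7 markers at 0, and their part in the differences was not tested.

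**Figure D2:**
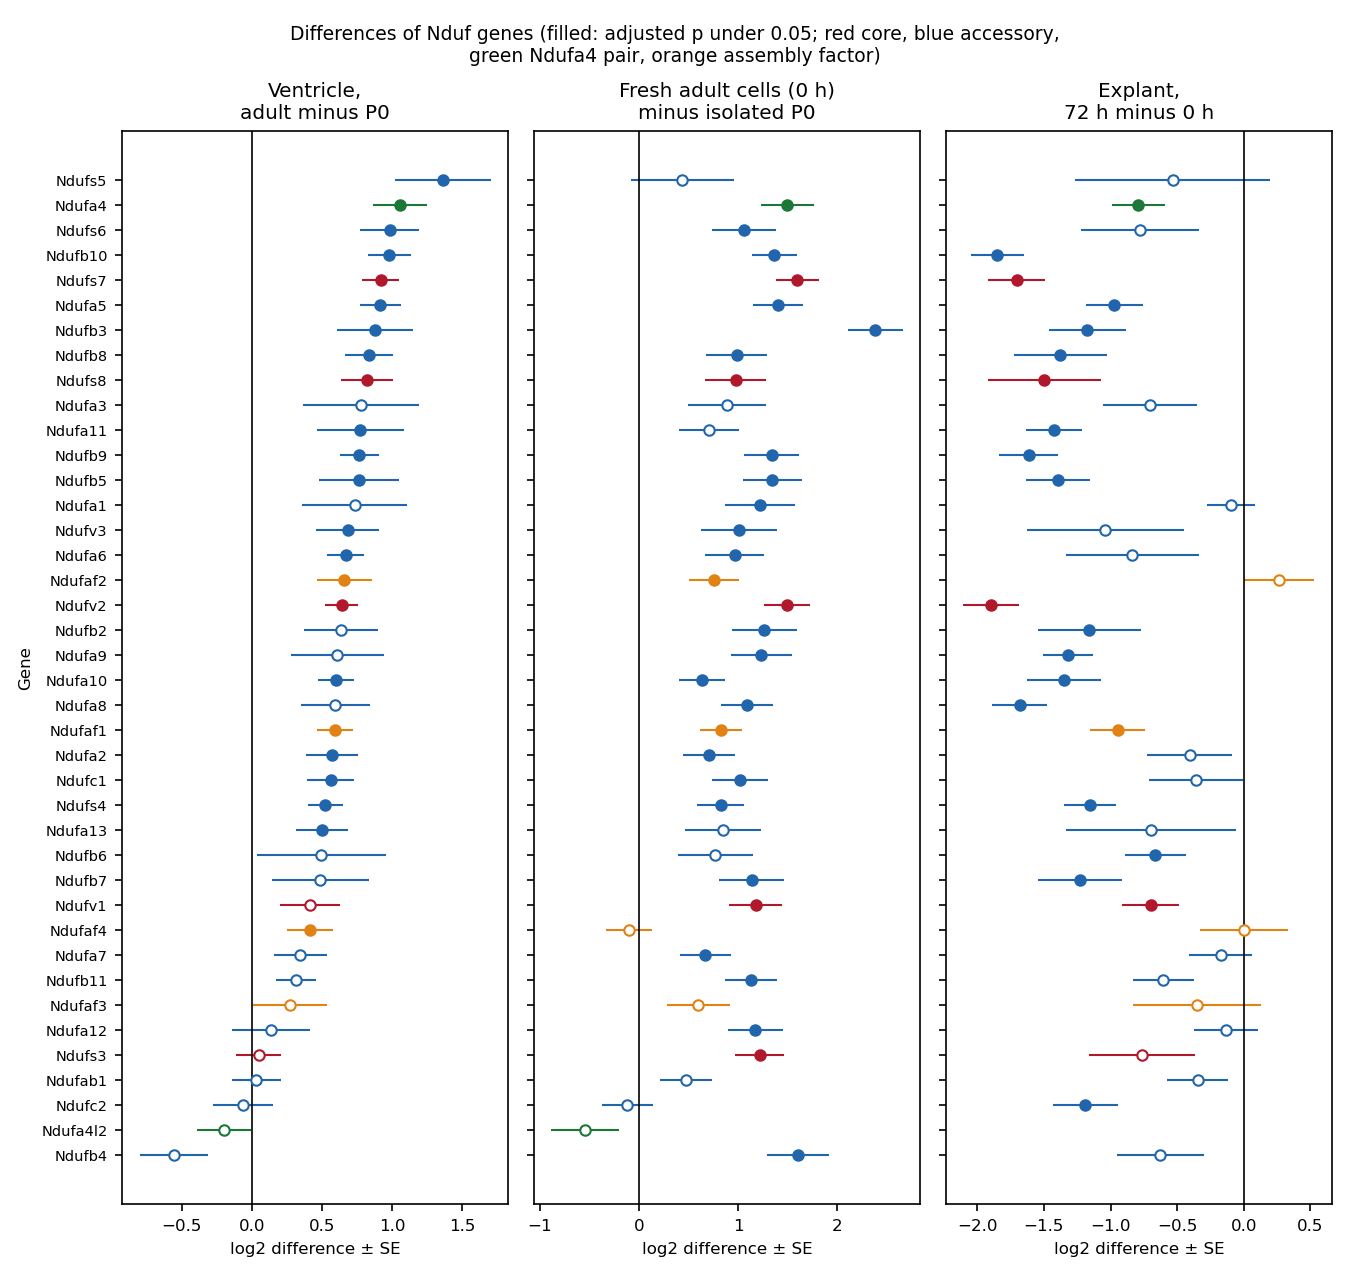
Log2 differences (points) with their standard errors (bars) of 40 Nduf genes in adult against P0 ventricle, in fresh adult cardiomyocytes against cells isolated at P0, and in explants at 72 h against 0 h. Filled points passed an adjusted p of 0.05, all of them above 0 in the left and middle panels and below 0 in the right, where Ndufa4l2 was too low to be tested.

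Resection of ventricular muscle was compared with sham surgery. One day after surgery 3 members were higher in resected than in sham ventricle, beside 1.39% of all genes, and 0 were lower, beside 8.91% of all genes. The members' median log2 difference was -0.06, beside -0.16 over all genes, and it became 0.13 with median-of-ratios scaling and 0.11 with quantile normalization. Ndufa12 was 7.14 and 5.8 FPKM 1 day after sham surgery and 22.1 and 11.2 FPKM 1 day after resection. Ndufb4 was 7.59 and 6.99 FPKM 1 day after sham surgery and 21.7 and 10.1 FPKM 1 day after resection. Both are accessory subunits at low levels here, and in both the resection libraries lay above the sham libraries but differed from each other by about as much as from sham. Ndufa6 was 457 and 525 FPKM 1 day after sham surgery and 756 and 620.4 FPKM 1 day after resection. The log2 differences were 1.18, 0.94 and 0.48, with adjusted p = 0.0221, 0.0317 and 0.038.

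The count depended on which libraries were included. Replicate 1 of the day 1 resection group stood apart from replicate 2, with 9 members more than 2-fold lower and 1, Ndufb4, more than 2-fold higher. Ndufb6 was 333 and 376 FPKM 1 day after sham surgery and 83.9 and 388 FPKM 1 day after resection. Ndufa1 was 415 and 419.9 FPKM 1 day after sham surgery and 96.5 and 319 FPKM 1 day after resection. Ndufa3 was 221 and 211 FPKM 1 day after sham surgery and 63.4 and 225 FPKM 1 day after resection. In these accessory subunits replicate 2 was near the sham libraries and replicate 1 far below them. Without resection replicate 1, or without either sham replicate, 0 members were called, and without resection replicate 2, 3 were higher and 12 lower, beside 2.37% and 19.0% of all genes. Summed cardiomyocyte markers were 17265 FPKM in replicate 1 and 24567 FPKM in replicate 2, and 0 of 6 were called between resection and sham. Of macrophage markers 4 of 8 were lower after resection, with sums of 74.5 to 105 FPKM after sham surgery and 35 to 36.7 FPKM after resection, as were 2 endothelial, 1 smooth muscle and 1 erythroid marker, and the part of these cells was not tested.

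At 7 days after surgery 0 members were called by limma between resected and sham ventricle, 0 had an unadjusted p under 0.05, and 0.162% of all genes were called in either direction. The sums were 11703 ± 5.59 (SD, n = 2) FPKM in sham and 11606 ± 717 (SD, n = 2) FPKM in resected ventricle. The smallest p-values were those of Ndufa4l2 and Ndufs7. Ndufa4l2 was 4.59 and 4.56 FPKM 7 days after sham surgery and 5.37 and 6.29 FPKM 7 days after resection. Ndufs7 was 55.3 and 60.9 FPKM 7 days after sham surgery and 54.6 and 48.5 FPKM 7 days after resection. The groups did not overlap in either gene but lay close together, with log2 differences of 0.29 ± 0.19 (SE) and -0.17 ± 0.13 (SE). Over all members the median difference was 0.00, beside 0.11 over all genes, and it became -0.11 with median-of-ratios scaling and -0.06 with quantile normalization. The difference between the day 7 and day 1 effects was tested itself with limma and called 0 members, beside 5.91% of all genes, with 3 at an unadjusted p under 0.05. The smallest p-values belonged to Ndufb4 (-1.16, adjusted p = 0.0664) and Ndufa12 (-1.18, adjusted p = 0.0896), and without day 1 resection replicate 2, 8 members were called higher and 3 lower, beside 17.8% of all genes higher and 0.938% lower.

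In isolated cardiomyocytes 0 members differed between resection and sham at day 7 by limma, 0 had an unadjusted p under 0.05, and 1.09% of all genes were called in either direction. The estimate lay above 0 for 40 of 41 members, with a median of 0.29 beside 0.13 over all genes. The groups overlapped for all 41, and of all genes tested only 8.62% lay wholly above and 1.83% wholly below. The members' median became 0.12 with median-of-ratios scaling and 0.07 with quantile normalization. Ndufaf3 was 5.01, 4.82 and 6.03 FPKM after sham surgery and 6.94, 5.5 and 10.2 FPKM after resection. In this assembly factor, which had the smallest p-value, resection replicate 3 was the highest of the 6 libraries and resection replicate 2 lay within the sham range. Its log2 difference was 0.41 (adjusted p = 0.44). Without resection replicate 3 the median difference was -0.01, with 18 of 41 members above 0, and without resection replicate 2 it was 0.60.

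The same libraries differed in markers. The sum of the Nduf genes was 3703, 2389.6 and 5963 FPKM in resection replicates 1, 2 and 3 and that of 6 cardiomyocyte markers was 7536, 4399 and 11126 FPKM, in the same order. Erythroid markers summed to 10252, 4952 and 72171 FPKM after resection and 3746 to 5274 FPKM after sham surgery. The 5 lung epithelium markers, none at 0, summed to 178 to 1159.9 FPKM after resection and 0.435 to 2.7 FPKM after sham surgery. Endothelial markers were 17 to 388 and 404 to 463 FPKM, and the part of these cells in the result was not tested. Whether the day 7 effect in isolated cells differed from that in ventricle was tested in a fit over all libraries, which called 0 members by limma, beside 0.0809% of all genes, with 0 at an unadjusted p under 0.05. Ndufs3 (0.52) and Ndufa11 (0.57) had the smallest p-values there.

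Between P0 and P4 isolated cells also gave 0 calls among members by limma, 0 at an unadjusted p under 0.05, and 0.00765% of all genes were called in either direction. Ndufb2 was 109, 118 and 129 FPKM in isolated cells at P0 and 157, 203 and 127 FPKM at P4. Ndufa4l2 was 1.74, 1.3 and 2.63 FPKM in isolated cells at P0 and 2.41, 3.52 and 3.24 FPKM at P4. Both genes, which had the smallest p-values, overlapped between P0 and P4. Their log2 differences were 0.42 ± 0.28 (SE) for Ndufb2 of the membrane arm and 0.50 ± 0.38 (SE) for Ndufa4l2. The sum of the members ran from 5159 to 5829 FPKM at P0 and from 5018 to 7551 FPKM at P4.

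Fresh adult cardiomyocytes carried more RNA of most Nduf genes (in FPKM) than cells isolated at P0. Of 41 members 31 were higher at 0 h of explant and 0 were lower, beside 15.4% of all genes called higher and 28.6% lower, with a median log2 difference of 1.02 beside -0.17 over all genes. Called higher were 22 of 29 accessory subunits and 2 of 4 assembly factors. The preparations differ (column-purified neonatal cells and dissociated adult cells), so age and preparation cannot be told apart. Erythroid markers also differed, at 989 to 21042 FPKM in isolated cells at P0 and 8.69 to 8.85 FPKM in fresh adult cells. Of cardiomyocyte markers 3 of 6 were higher and 1 lower in fresh adult cells, with sums of 12474 to 14611 FPKM at P0 and 16089 to 20406 FPKM in adult cells. Called lower were 4 of 4 atrial, 5 of 7 fibroblast and 4 of 5 smooth muscle and pericyte markers, and the part of these cells in the difference was not tested.

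The largest fitted differences were those of Ndufb3 (chr1:58643227-58652808 on mm9) and Ndufb4, small membrane-arm subunits. Both are among the members with a near copy in another gene, so their levels are uncertain. Ndufb3 was 27.8, 29.6 and 32 FPKM in isolated cells at P0 and 128 and 198 FPKM in fresh adult cells. The adult cells were several times higher (log2 difference 2.38 ± 0.28 (SE), adjusted p = 2.19e-07). Ndufb4 was 3.64, 5.46 and 3.96 FPKM in isolated cells at P0 and 18.1 and 12.6 FPKM in fresh adult cells. This too was higher without overlap (1.60, adjusted p = 0.00019), whereas in ventricle Ndufb4 was lower in both adult libraries than at P0. Among core subunits Ndufs7 came first, followed by Ndufv2 (chr17:66428134-66450899). Ndufs7 was 169, 174 and 211 FPKM in isolated cells at P0 and 495 and 625 FPKM in fresh adult cells. Ndufv2 was 230.4, 212 and 247 FPKM in isolated cells at P0 and 560.4 and 744 FPKM in fresh adult cells. Neither overlapped between the groups, with a log2 difference of 1.59 ± 0.22 (SE, adjusted p = 2.22e-06) for Ndufs7 and a log2 difference of 1.49 ± 0.23 (SE, adjusted p = 1.29e-05) for Ndufv2. Ndufs3, Ndufv1 and Ndufs8 were higher by 1.22, 1.17 and 0.97 on the log2 scale. Ndufa4, Ndufa5, Ndufb10 and Ndufb5 were higher by 1.50, 1.40, 1.36 and 1.34.

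Members that were not called included Ndufa4l2, which was low in both preparations. Ndufa4l2 was 1.74, 1.3 and 2.63 FPKM in isolated cells at P0 and 0.913 and 0.981 FPKM in fresh adult cells. Its adult libraries were below all 3 at P0 and under the minimum of 1 FPKM, and the difference was -0.54 (adjusted p = 0.204). Of the assembly factors Ndufaf1 and Ndufaf2 were higher by 0.83 and 0.75, while Ndufaf3 (0.60, adjusted p = 0.135) and Ndufaf4 (-0.10, adjusted p = 0.77) were not called. The mt-Nd genes gave other values, with 0 of 7 called by limma, 1 at an unadjusted p under 0.05 and a median difference of -0.47. Of complexes II to V 2 of 4, 6 of 9, 6 of 13 and 9 of 15 genes were higher, with 2 genes of complex IV lower. With quantile normalization 11 members were higher and 1 lower, beside 21.3% of all genes called higher and 22.8% lower.

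Fresh adult cells and whole adult ventricle differed in fewer Nduf genes. Called higher in the cells were Ndufb3 (1.44), Ndufb4 (0.95) and Ndufa4 (0.76), beside 1.81% of all genes, and called lower were Ndufa4l2 and Ndufaf4 (-0.77), beside 32.0% of all genes. Ndufa4l2 was 9.76 and 9.26 FPKM in adult ventricle and 0.913 and 0.981 FPKM in the cells, a log2 difference of -2.43 (adjusted p = 3.49e-05). Fibroblast markers summed to 389.6 to 403 FPKM in adult ventricle and 10.8 to 17.8 FPKM in the cells, and smooth muscle and pericyte markers to 296 to 439 and 72.5 to 114 FPKM. Their part in the level of Ndufa4l2 was not tested. The call of Ndufa4 was at adjusted p = 0.0496. Fewer members were called without adult replicate 1, without adult replicate 2 or without explant 0 h replicate 2. Median-of-ratios scaling gave 18 calls in either direction, beside 7.83% of all genes called higher and 17.7% lower.

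In explant culture, which follows adult cardiomyocytes away from the heart, Nduf genes fell with time. At 24 h 0 of 40 tested members were called by limma, with 15.5% of all genes called higher, 2.60% lower and 6 members at an unadjusted p under 0.05. At 48 h 9 were lower, beside 35.3% of all genes called higher and 7.23% lower, and at 72 h 22 were lower and 0 higher, beside 46.9% of all genes called higher and 9.10% lower. The median log2 difference of the members went from -0.29 at 24 h to -0.37 at 48 h and -0.89 at 72 h, while that of all genes went from 0.37 to 0.59 and 0.76. With median-of-ratios scaling the members' medians were -0.77, -1.07 and -1.74. The 3 comparisons share the 0 h libraries. Replicate numbers paired the explant libraries, and with the number as a block 12 members were lower at 24 h, 20 at 48 h and 31 at 72 h. In that fit 6.53%, 11.1% and 12.6% of all genes were called lower and 33.9%, 51.0% and 58.6% higher. The test was on 40 members because Ndufa4l2 was below the minimum level, at 0.913 and 0.981 FPKM at 0 h and 0 and 0.702 FPKM at 72 h.

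Core subunits were among the members with the largest falls at 72 h. Ndufv2 was 560.4 and 744 FPKM at 0 h, 426 and 409 FPKM at 24 h, 362 and 356 FPKM at 48 h and 166 and 179 FPKM at 72 h. Every later library was below both at 0 h, and the 72 h libraries were the lowest (log2 difference -1.90 ± 0.21 (SE), adjusted p = 0.000725). Ndufs7 was 495 and 625 FPKM at 0 h, 383 and 405 FPKM at 24 h, 266 and 281 FPKM at 48 h and 189 and 153 FPKM at 72 h. This subunit, too, was lower at each later time without overlap (log2 difference -1.70 ± 0.21 (SE), adjusted p = 0.00104). Ndufs8 was 233 and 127 FPKM at 0 h, 158 and 105 FPKM at 24 h, 141 and 83.3 FPKM at 48 h and 78.2 and 46.2 FPKM at 72 h. Replicate 1 was above replicate 2 at each time, both were lower at each step, and the difference at 72 h was -1.50 (adjusted p = 0.0197). Ndufv1 fell by 0.70 on the log2 scale. Ndufs3, the low core subunit, was not called at 72 h (-0.77, adjusted p = 0.133), but it was called with the replicate block at adjusted p = 0.0107.

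Of the 29 accessory subunits 15 were lower at 72 h. Ndufb10 was 544 and 639 FPKM at 0 h, 340.3 and 396 FPKM at 24 h, 240.0 and 263 FPKM at 48 h and 171 and 155 FPKM at 72 h. The 4 times did not overlap one another, and both replicates were lower at each step (log2 difference -1.85 ± 0.20 (SE), adjusted p = 0.00071). Ndufa8 was 269.8 and 358 FPKM at 0 h, 204 and 201 FPKM at 24 h, 140.4 and 146 FPKM at 48 h and 95.9 and 96.4 FPKM at 72 h. For this intermembrane-space subunit the times again did not overlap (log2 difference -1.68 ± 0.20 (SE), adjusted p = 0.000966). At 48 h these were already the members with the largest differences, Ndufb10 at -1.23, Ndufa8 at -1.12 and Ndufs7 at -1.02. At 72 h Ndufb9 fell by 1.62, Ndufa11 by 1.42 and Ndufb5 by 1.40 on the log2 scale. Also lower at 48 h were Ndufb3, Ndufv2, Ndufc2, Ndufb9 and Ndufa11, by 0.92, 0.85, 0.84, 0.72 and 0.69.

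At 72 h the estimate lay below 0 for 39 of the 40 tested members and above 0 for 1, Ndufaf2. Some members changed little in FPKM. Ndufa1 was 432 and 400.1 FPKM at 0 h, 359 and 379 FPKM at 24 h, 443 and 418 FPKM at 48 h and 379 and 399.6 FPKM at 72 h. The 8 values of Ndufa1, a small membrane subunit, lay close together in FPKM, with a log2 difference at 72 h of -0.10 ± 0.18 (SE, adjusted p = 0.667). Ndufa12 and Ndufa7 of the peripheral arm differed by -0.14 and -0.17, and their groups overlapped. With median-of-ratios scaling the differences were -0.96 for Ndufa1 and -1.04 for Ndufa7, with Ndufa12 between them and all 3 called, and with quantile normalization Ndufa1, Ndufa12 and Ndufa7 differed by 0.29, -0.29 and -0.36 without a call. Of the assembly factors Ndufaf1 fell by 0.95 on the log2 scale (adjusted p = 0.0069). Ndufaf2 was 30.5 and 30.5 FPKM at 0 h, 23 and 36.2 FPKM at 24 h, 33.1 and 36.8 FPKM at 48 h and 32 and 42.4 FPKM at 72 h. Both 72 h libraries were above both at 0 h, but Ndufaf2 was not called, and its difference at 72 h of 0.27 became -0.58 with median-of-ratios scaling and -0.31 with quantile normalization. Ndufaf3 and Ndufaf4 differed by -0.35 and -0.0015 with overlapping groups. Ndufa4 fell by 0.79 on the log2 scale (adjusted p = 0.0129).

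**Figure D3:**
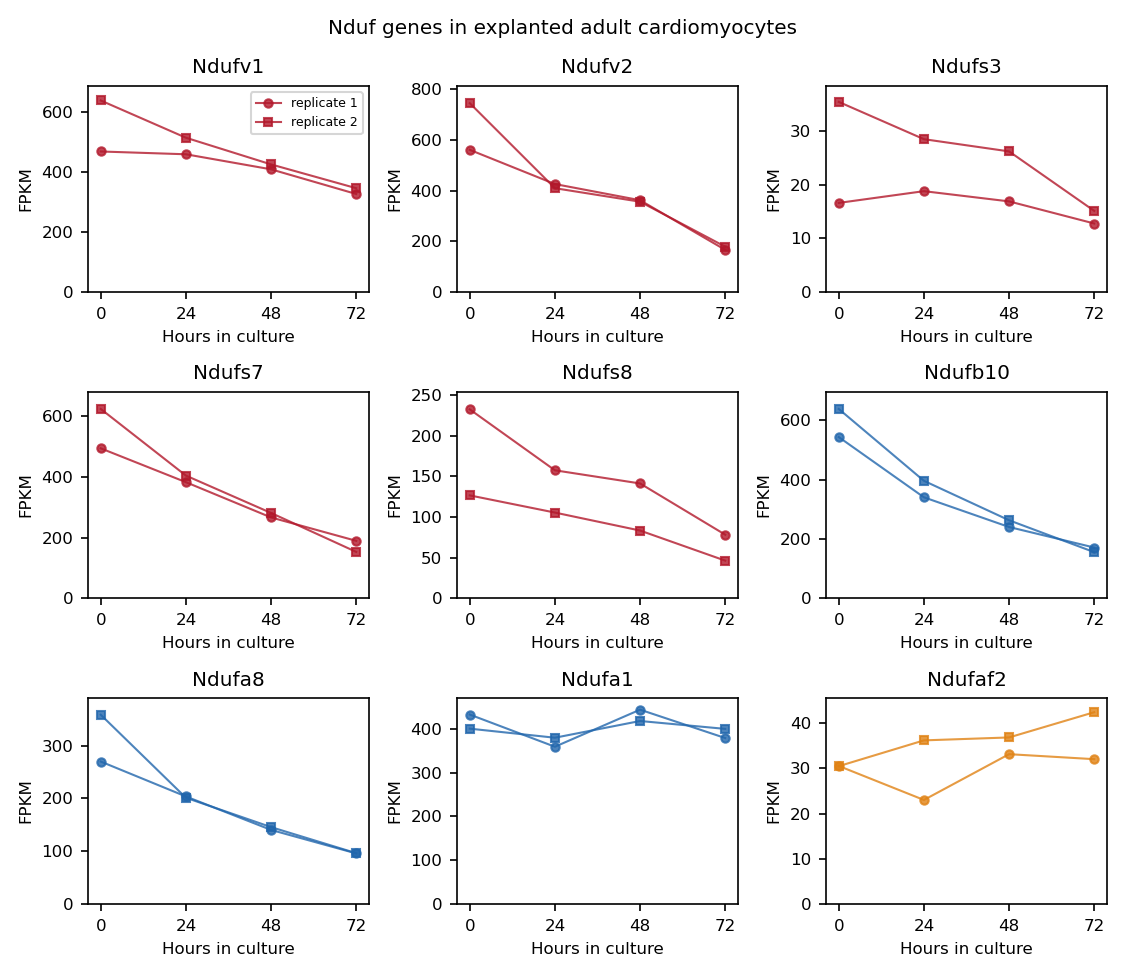
FPKM (linear axes from 0) of 5 core subunits (red), 3 accessory subunits (blue) and the assembly factor Ndufaf2 (orange) against hours in explant culture, with 1 line for each replicate number. Ndufv2, Ndufs7, Ndufb10 and Ndufa8 were lower at each step in both replicates, while Ndufa1 stayed between 359 and 443 FPKM.

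Other respiratory chain genes were also lower at 72 h, with 4 of 4 of complex II, 6 of 9 of complex III, 5 of 12 of complex IV and 11 of 15 of complex V. Examples were Sdhb (-1.65), Uqcrc1 (-1.94) and Atp5g3 (-1.72). Of complex I assembly genes with other names 2 of 9 were lower, Foxred1 (-1.01) and Acad9 (-0.69). Of the mt-Nd genes 0 of 6 tested were called by limma, 0 at an unadjusted p under 0.05, with a median of -0.42.

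Of 6 cardiomyocyte markers 5 fell by 72 h. Their sum was 16089 to 20406 FPKM at 0 h and 2589 to 2857 FPKM at 72 h. The sum of 8 macrophage markers was 1.76 to 2.37 FPKM at 0 h and 83.6 to 137 FPKM at 72 h. Only 3 of these 8 reached the minimum level for testing, most of them only through later libraries. Calls on them could hardly go the other way and are not counted here. No marker of either list was at 0, and the part of these cells was not tested. With single libraries left out, the members' median at 72 h ran from -1.11 without 72 h replicate 1 to -0.78 without 72 h replicate 2. At 48 h it ran from -0.55 without 48 h replicate 1 to -0.23 without 0 h replicate 1. Median-of-ratios scaling moved the median of all genes at 72 h to 0.08. It called 10, 27 and 35 members lower at the 3 times, beside 7.08%, 15.8% and 19.0% of all genes.

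Over the 16 groups most members had a like pattern, with a median correlation of 0.84. Pearson correlation of a member's group means with the median member was highest for Ndufb9 (0.98) and Ndufb8 (0.98). It was lowest for Ndufa4l2 (-0.19), Ndufa12 (-0.17), Ndufa11 (-0.17), Ndufb7 (-0.06) and Ndufa13 (-0.02). Over the 12 groups without operated ventricle, Ndufa4l2 stayed apart (-0.27), whereas Ndufb7 (0.95), Ndufa13 (0.93), Ndufa12 (0.85) and Ndufa11 (0.80) were close to the rest, and 23 members were above 0.9. Ndufc2 of the membrane arm was then the second lowest (0.32). These groups share libraries' size scaling and the members themselves make up the median, so the values are descriptions.

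**Figure D4:**
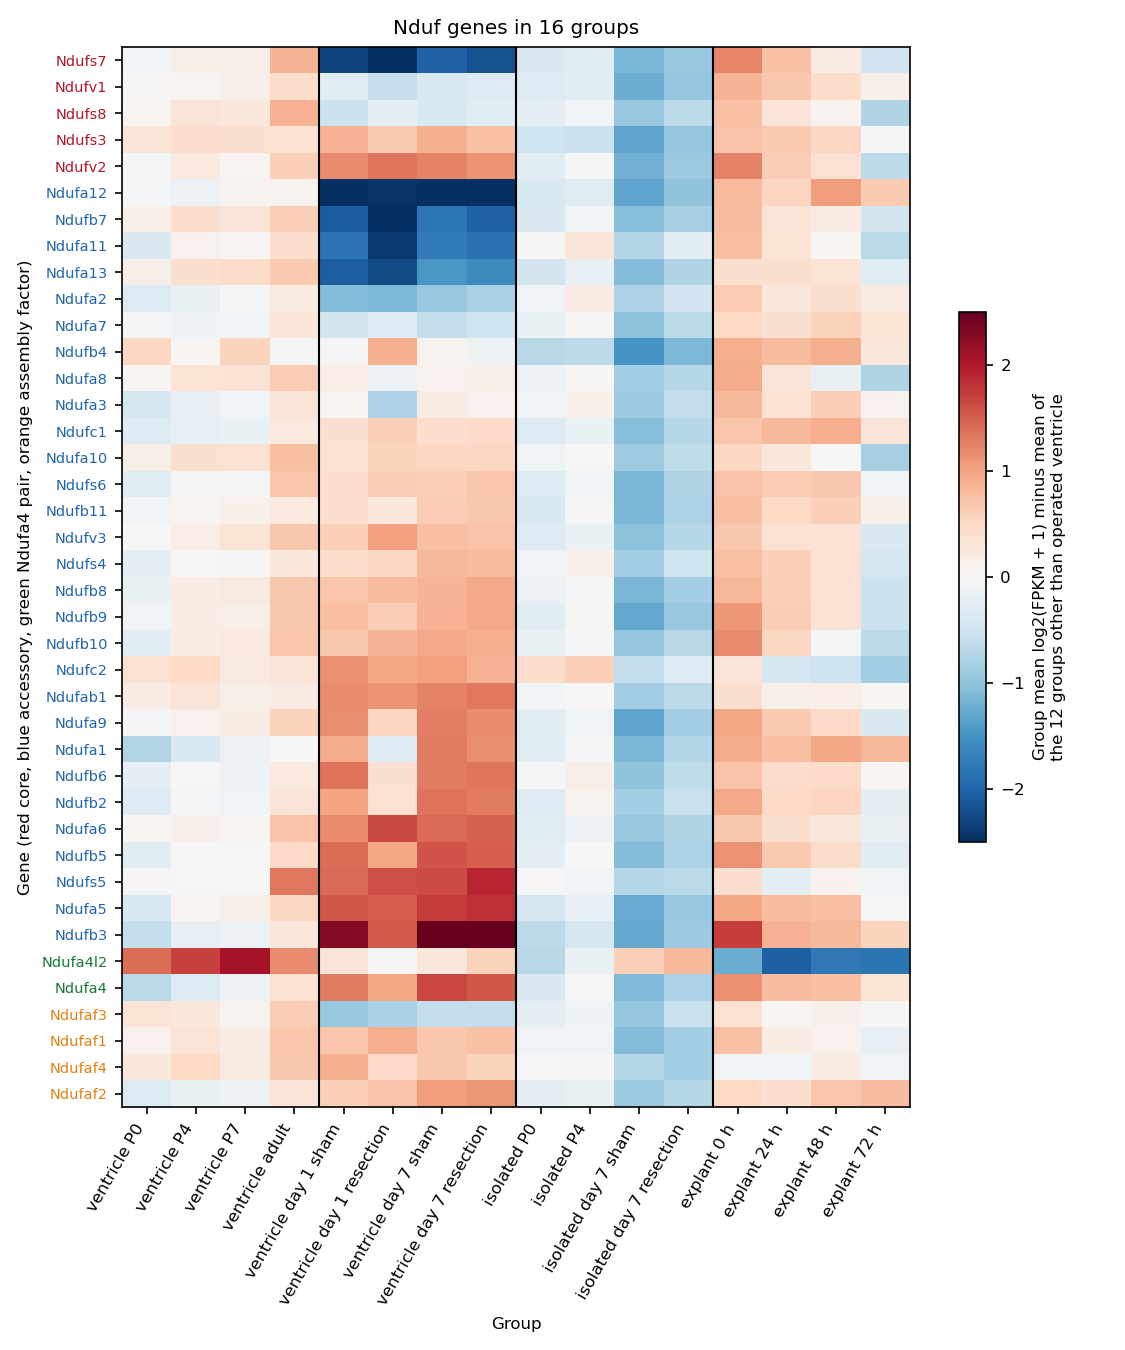
Group means of log2(FPKM + 1) of 40 Nduf genes (rows, by role) in the 16 groups (columns), each minus the gene's mean over the 12 groups other than operated ventricle. The isolated day 7 columns are low for nearly all genes, fresh explants are high, and in the 4 operated ventricle columns Ndufs7, Ndufb7, Ndufa11, Ndufa12 and Ndufa13 are low while Ndufb3 and Ndufa4 are high.

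Ventricle libraries from operated animals departed from the others gene by gene. Between ventricle 7 days after sham surgery and P7 ventricle 28 members were higher and 13 lower, 13 of them more than 2-fold higher and 6 more than 2-fold lower, over a range of log2 differences from -3.44 to 2.76. Ndufs7 was 267 and 258 FPKM at P7 and 55.3 and 60.9 FPKM 7 days after sham surgery. Ndufb3 was 39.2 and 47.1 FPKM at P7 and 294 and 298 FPKM 7 days after sham surgery. Ndufa12 was 72.3 and 130.1 FPKM at P7 and 8.1 and 8 FPKM 7 days after sham surgery. Ndufs7 and Ndufa12 were thus far lower in the sham libraries and Ndufb3 far higher, with no overlap in any of them. Across the 41 genes the difference correlated with the GC content of their transcripts (Pearson r = -0.65), and across 12140 other genes r was -0.51. For adult against P0 the GC value across members was -0.02, while r with log2 transcript length was -0.32 across members and -0.08 across other genes. For explants at 72 h against 0 h r with GC content was -0.25 across members and -0.06 across other genes. Genes are not independent replicates, and the correlations describe these libraries. The labels name a pair of library preparations and a pair of sequencers without assigning them to samples, so surgery and preparation cannot be told apart, and no change with surgery itself is reported from these levels.

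**Figure D5:**
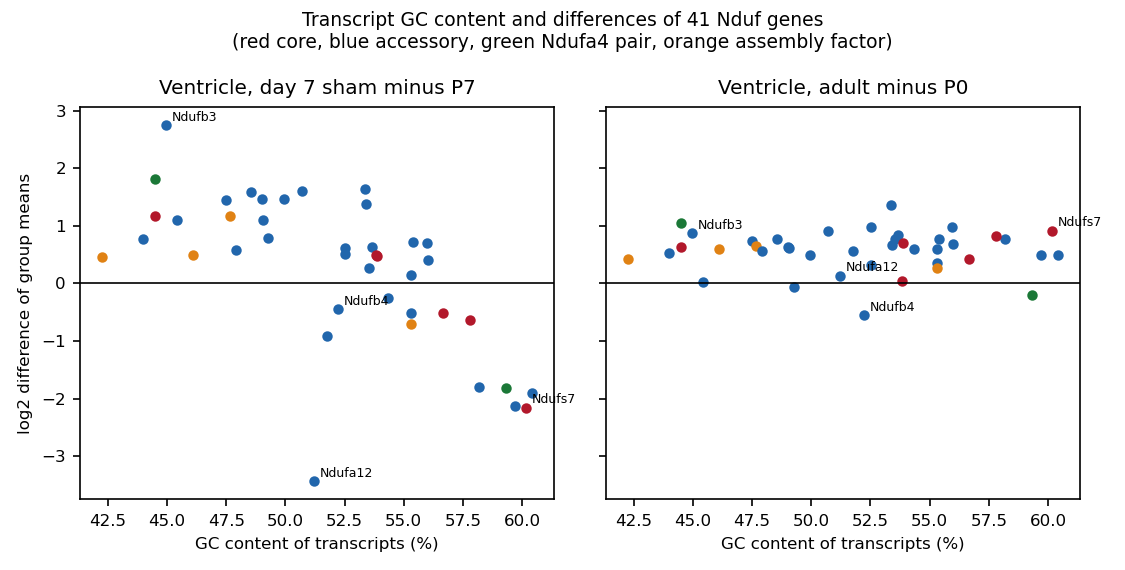
Log2 difference of group means against transcript GC content of the 41 Nduf genes, for ventricle 7 days after sham surgery against P7 ventricle (left) and adult against P0 ventricle (right), coloured by role. On the left the 6 genes more than 2-fold lower include Ndufs7 and Ndufa12 and the highest is Ndufb3, whereas on the right r is -0.02.

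The transcripts of the members were short, with a median length of 782 bases (382 to 2413) beside 2142 over the other genes, and a median GC content of 52.5% (42.3% to 60.4%) beside 50.9%.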

How the data were processed

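Total RNA of 36 mouse heart libraries in 16 groups was sequenced, and the authors deposited 1 table of FPKM for 36128 gene models on mm9. The submitters' processing notes list Cufflinks 1.2.1, Cuffdiff, TopHat 1.3.2 and Bowtie 0.12.7, and their settings are not given in the sources used here. FPKM values gave no whole-read steps, so depth is unknown and no count test was run. The model with the highest mean was kept per symbol. limma 3.58.1 (R 4.3.3, mean-variance trend) was fitted on log2(FPKM + 1) within ventricle (16 libraries), isolated cells (12) or explants (8), or over all 36 for comparisons across preparations, on genes with at least 1 FPKM in 2 libraries. A call was a Benjamini-Hochberg adjusted p under 0.05 over all genes tested. In simulated data the test recovered 70.1% to 86.6% of 2-fold changes between ventricle groups. In isolated cells it recovered 44.8% (P4 against P0) and 59.7% (day 7), and of 1.5-fold changes 8.96% and 10.4%. In explants it recovered 8.96%, 2.99% and 1.49% of 2-fold changes at 24, 48 and 72 h. Few genes were changed in each simulation (in explants 67 by 1.5-fold, 67 by 2-fold and 66 by 4-fold among 12181). In the explant data 46.9% of all genes were called higher and 9.10% lower at 72 h. With few changed genes the adjusted p demands a smaller p, so these shares do not give the recovery in the data. A gene without a call may still have changed.

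The members and lists were chosen with earlier results of these data known. All members were eligible to be named, with up to 8 called per direction and comparison, core subunits, the Ndufa4 pair and assembly factors always, and where none was called the 2 with the smallest p. From other lists the counts and at most 2 called genes with the largest change were named. By correlation of group means with the median member, the 3 most and 5 least like were eligible. Values of 1 member and 1 marker are not reported here. Some further genes (for example Ndufa1, Ndufa7, Ndufb6, Ndufc2) were chosen after their values were seen.

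Equal replicate numbers correlated in all 12 explant pairs (r = 0.38 to 0.62, from deviations from group means) and so pair those libraries. Equal numbers did not do so in isolated cells (6 of 18 pairs over 0.1) or ventricle (4 of 56). In groups of 2 libraries the deviations mirror each other. Each explant or ventricle value therefore occurs for both replicate numbers, and these pairs are not independent. Motifs were searched in RefSeq promoters of GRCm38.p6, and near copies with BLAST 2.17.0 among annotated transcripts. Alternatives were a pseudocount of 0.1, quantile normalization or median-of-ratios scaling, no filter on low values, a replicate block, other sets of libraries in the fit and leaving out each library. Fits of unoperated or operated ventricle alone were added after seeing the data.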

Additional observations from a re-analysis of the deposited data

How the results depend on the processing

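With 2 libraries per group, small samples limit the ventricle and explant comparisons, and with FPKM alone the depth behind a value is unknown. A lone library left in a group was assumed to vary like the others of its preparation. The counts below are members called in either direction, and the cause of each change was not tested. The share of all genes called changed with the setting too. In adult against P0 9.13% of all genes were called higher in a fit over all libraries and 23.8% with median-of-ratios scaling.

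In ventricle, P4 against P0 called 1 with quantile normalization. P7 against P0 called 0 with no filter and with all libraries in 1 fit, 5 with median-of-ratios scaling, 5 with quantile normalization and 6 in unoperated ventricle alone. Adult against P0 called 11 in the single fit (9.13% and 32.5%). Adult against P7 called 29 with median-of-ratios scaling (19.4% and 19.5%) and 9 with quantile normalization (18.1% and 18.7%). It called 1 in the single fit (5.84% and 16.4%) and 25 in unoperated ventricle alone (13.5% and 36.2%). Day 1 resection against sham called 0 with no filter (0.543% and 3.58%) and 1 in the single fit (0.351% and 3.13%). It called 0 in operated ventricle alone (0.224% and 1.34%). Without resection replicate 2 more members were called, mostly lower. Explants at 24 h called 1 with a pseudocount of 0.1 (18.0% and 2.13%) and 10 with median-of-ratios scaling (5.07% and 7.08%). They called 1 with quantile normalization (3.97% and 4.52%) and 2 in the single fit (27.3% and 4.39%). Median-of-ratios scaling gave 27 at 48 h (11.5% and 15.8%) and 35 at 72 h (16.5% and 19.0%). Fresh adult cells against isolated P0 called 12 with quantile normalization. Against adult ventricle they called 3 with no filter and 3 without adult replicate 1, mostly lower in both, 18 with median-of-ratios scaling and 3 with quantile normalization.

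With the replicate block, explants called 12 at 24 h, 20 at 48 h and 31 at 72 h, where the numbers pair the libraries. In ventricle and isolated cells, where they do not, the block moved no count of calls by over 1.5 times, with 23 in adult against P0.

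Leaving out each library in turn gave 0 in P7 against P0, 16 to 22 in adult against P0, 6 to 10 in adult against P7, 0 to 15 at day 1, 0 to 11 in the day 7 minus day 1 effect, 0 at 24 h, 2 to 7 at 48 h, 14 to 22 at 72 h, 20 to 29 in fresh adult cells against isolated P0, 2 to 5 against adult ventricle, and 0 in the rest.

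Single members turned direction as follows. In adult against P0, Ndufa4l2 was 0.17 with median-of-ratios scaling and 0.18 with quantile normalization, and Ndufs3 ran from -0.022 without adult replicate 1 to 0.12 without adult replicate 2. In explants at 72 h, Ndufaf2 was -0.58 and -0.31 with those scalings, Ndufaf3 ran from -0.90 without 0 h replicate 2 to 0.20 without 0 h replicate 1 (0.06 without 72 h replicate 2), and Ndufaf4 was 0.0004 with a pseudocount of 0.1 and ran from -0.36 without 0 h replicate 2 to 0.36 without 0 h replicate 1 (0.06 without 72 h replicate 2). In fresh adult cells against isolated P0, Ndufaf4 ran from -0.46 without 0 h replicate 1 to 0.26 without 0 h replicate 2.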
